A study of Homo sapiens with 14 samples.

Results

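The genes of the proteasome were described in RNA sequencing libraries of mouse xenografts of UMUC3, an established line of human bladder carcinoma. Members were all genes with a protein-coding transcript whose symbol is PSM followed by a letter from A to G and a number, and this rule took 48 of the 62749 genes in the tables, 19644 of which have a protein-coding transcript. The 14 libraries fell into 4 groups: FASN knockdown cells pre-exposed to 10% cigarette smoke medium (CSM) before engraftment (n = 4), FASN knockdown cells from regular medium (n = 3), control cells pre-exposed to 10% CSM (n = 4) and control cells from regular medium (n = 3). FASN encodes fatty acid synthase, and the titles name a short hairpin for the control cells, while the labels do not say how the knockdown was made, how long the cells met the smoke medium, or whether each library is a tumour of its own.

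The 26S proteasome degrades proteins tagged with ubiquitin. Its 20S core is a barrel of alpha and beta rings, in which PSMB5, PSMB6 and PSMB7 carry the constitutive proteolytic sites. The 19S particle caps the barrel, recognises ubiquitin and unfolds the substrate with a ring of ATPases. Interferon induces the alternative catalytic subunits PSMB8, PSMB9 and PSMB10, which take the places of PSMB5, PSMB6 and PSMB7 in newly built cores and form the immunoproteasome, a source of peptides for MHC class I. PSME1 and PSME2 form the interferon-induced cap PA28, and PSMG1 to PSMG4 are chaperones that assemble the core.

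Expected counts summed over all genes ran from 15810287 to 45209466 per library. The members took 0.261% to 0.424% of them. The small cytoplasmic 7SL RNA, part of the signal recognition particle, took 2.64% to 25.6%, and the 2 libraries above 15% were FASN knockdown replicate 2 and control after CSM replicate 3. Of the markers of this tumour line, VIM had 1190 to 2770 CPM, KRT18 91.7 to 214 CPM and KRT8 69.6 to 134 CPM, and KRT19 had at most 0.183 CPM. The tables hold human transcripts only, so that leukocyte genes of the mouse host can appear there only through similar sequence. Of 16 leukocyte markers TYROBP was at 0 in every library, CD3E had at most 0.207 CPM and PTPRC at most 2.17 CPM, while CD68, which is also expressed outside leukocytes, had 35.5 to 103 CPM. LYZ had 3.11 to 22.5 CPM and ITGAM 1.1 to 2.91 CPM, and the remaining markers had at most 0.596 CPM each. FASN itself had 220, 166, 301 and 479 CPM in libraries labelled knockdown after CSM (replicates 1 to 4), and 456, 479, 423 and 366 CPM in the control after CSM. Replicate 4 stood at 111% of that control mean and goes against its label. In regular medium FASN had 121, 99.9 and 132 CPM in the knockdown and 571, 404 and 379 CPM in the control. The log2 fold change of FASN was -1.94 in regular medium (edgeR's quasi-likelihood test, adjusted p = 0.0245) and -0.57 after CSM (adjusted p = 0.288). The exact two-sided permutation p was 0.1 in regular medium, the smallest that 3 against 3 libraries allow, and 0.114 after CSM. Leaving out any 1 of the 6 libraries from regular medium gave FASN log2 fold changes of -2.07 to -1.73 with adjusted p-values above 0.05. After CSM the value without replicate 4 of the knockdown was -0.90 (adjusted p = 0.108), and without replicate 2 it was -0.37 (adjusted p = 0.460), the ends of the range over left-out libraries. All these values of FASN are on the CPM scale. On the TPM scale FASN after CSM was higher in the knockdown than in the control, as the closing section gives.

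The immunoproteasome genes are shown first by sequence, because they are the interferon-induced members. PSMB8 also starts from alternative first exons, whose estimated shares of counts differed between libraries. PSMB8 (ENSG00000204264.12) lies on chromosome 6 from 32840717 to 32844679, next to PSMB9 (ENSG00000240065.8) from 32854192 to 32859851, both in the MHC region, and PSMB10 (ENSG00000205220.12) lies on chromosome 16 from 67934506 to 67936850 (RefSeq, GRCh38.p14). Each window below holds 250 bases before and 50 bases after a transcription start, 5′ to 3′ on the strand of the gene. Capitals mark matches on either strand to the core of the interferon-stimulated response element (GAAA, any 2 bases, GAAA), to the gamma-activated site (TTCNNNGAA) and to the core of the antioxidant response element (TGACNNNGC), which do not overlap in these windows.
PSMB8, start of the short coding transcript, chr6:32843998-32844297, minus strand: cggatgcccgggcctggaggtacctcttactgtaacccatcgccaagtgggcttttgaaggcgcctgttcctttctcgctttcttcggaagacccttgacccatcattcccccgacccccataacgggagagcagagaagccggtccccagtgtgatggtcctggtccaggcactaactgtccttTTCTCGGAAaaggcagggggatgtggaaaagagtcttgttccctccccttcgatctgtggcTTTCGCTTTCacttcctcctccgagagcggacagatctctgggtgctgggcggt
PSMB8, RefSeq start nearest to that of the long coding transcript, chr6:32844630-32844929, minus strand: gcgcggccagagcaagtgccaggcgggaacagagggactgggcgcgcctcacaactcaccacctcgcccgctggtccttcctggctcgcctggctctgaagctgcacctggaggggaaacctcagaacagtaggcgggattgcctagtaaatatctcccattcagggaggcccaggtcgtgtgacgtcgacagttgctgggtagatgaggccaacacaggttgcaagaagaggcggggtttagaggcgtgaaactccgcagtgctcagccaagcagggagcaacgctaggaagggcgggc
PSMB9, chr6:32853942-32854241, plus strand: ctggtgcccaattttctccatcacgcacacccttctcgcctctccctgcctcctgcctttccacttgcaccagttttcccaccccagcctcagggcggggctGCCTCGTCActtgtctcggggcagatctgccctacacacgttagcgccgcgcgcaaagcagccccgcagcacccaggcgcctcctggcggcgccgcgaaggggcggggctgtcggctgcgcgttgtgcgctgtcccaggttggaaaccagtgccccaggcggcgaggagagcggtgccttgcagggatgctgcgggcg
PSMB10, chr16:67936801-67937100, minus strand: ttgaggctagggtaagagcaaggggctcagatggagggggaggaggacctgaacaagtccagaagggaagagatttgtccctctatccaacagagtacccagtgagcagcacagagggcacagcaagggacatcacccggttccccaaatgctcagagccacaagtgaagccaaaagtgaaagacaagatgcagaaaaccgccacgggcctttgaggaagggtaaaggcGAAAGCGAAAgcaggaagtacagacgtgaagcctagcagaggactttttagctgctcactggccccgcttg
RefSeq windows were found for 42 of the 48 members, 51 windows in all. The interferon-stimulated core was in 7 of the 51 (13.7%), those of PSMA4, PSMB4, PSMB8, PSMB10, PSME1, PSME2 and PSMG4, and in 3.57% of all 35116 windows. The gamma-activated site was in 8 of the 51 (15.7%) and in 7.66% of all windows. The antioxidant core was in 15 of the 51 (29.4%), that of PSMB9 among them, and in 13.3% of all windows. These are matches of letters, and binding was not measured.

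Of the 48 members, 46 passed the filter on low counts and were tested in a fit over 22560 genes. The members below it were PSMA8, the alpha subunit of the testis, with 1 count in all 14 libraries together, and PSMB11, the catalytic subunit of the thymus, with 7 counts in 3 libraries. On the TPM scale, which corrects for transcript length, PSME2 had the highest median level over the libraries (157 TPM), followed by PSMA7 (120 TPM), PSMC3 and PSMB7 (113 TPM each) and PSMF1, the inhibitor PI31 (111 TPM). The range over libraries was 98 to 235 TPM for PSME2 and 61.2 to 192 TPM for PSMA7, so that these neighbours overlap. At the low end stood PSMG3 (11.7 TPM), PSMB10 (11.6 TPM) and PSME4, the activator PA200 (12.6 TPM). The median was 22.9 TPM for PSMB8 and 20.7 TPM for PSMB9, against 49.2 TPM for PSMB5 and 79.2 TPM for PSMB6. The 3 immunoproteasome genes together held 1.52% to 3.19% of the members' TPM in a library, and the 3 constitutive catalytic genes 8.68% to 12.0%.

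Most members went up and down together from library to library, whatever the group. Across the 14 libraries, the log2 CPM of a member and the mean of the other members had a median Pearson r of 0.86, and 28 of 46 members had an r of at least 0.8. PSMA1, PSMA5 and PSMD2, a scaffold subunit of the 19S base, had the highest r at 0.97. Only PSMG4, a core assembly chaperone, and PSMB10 had an r below 0, at -0.77 and -0.33, and PSMD3, PSMB2, PSMD8 and PSMD9 had 0.17 to 0.49. All values of a library share its depth and normalisation, so that these correlations are a description. FASN knockdown replicate 3 was the lowest of all libraries for 30 of the 46 members and replicate 1 of the group labelled knockdown after CSM for 11. Control after CSM replicate 3 was the highest for 26 and FASN knockdown replicate 2 for 14, and these are the 2 libraries with the most 7SL RNA.

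**Figure D1:**
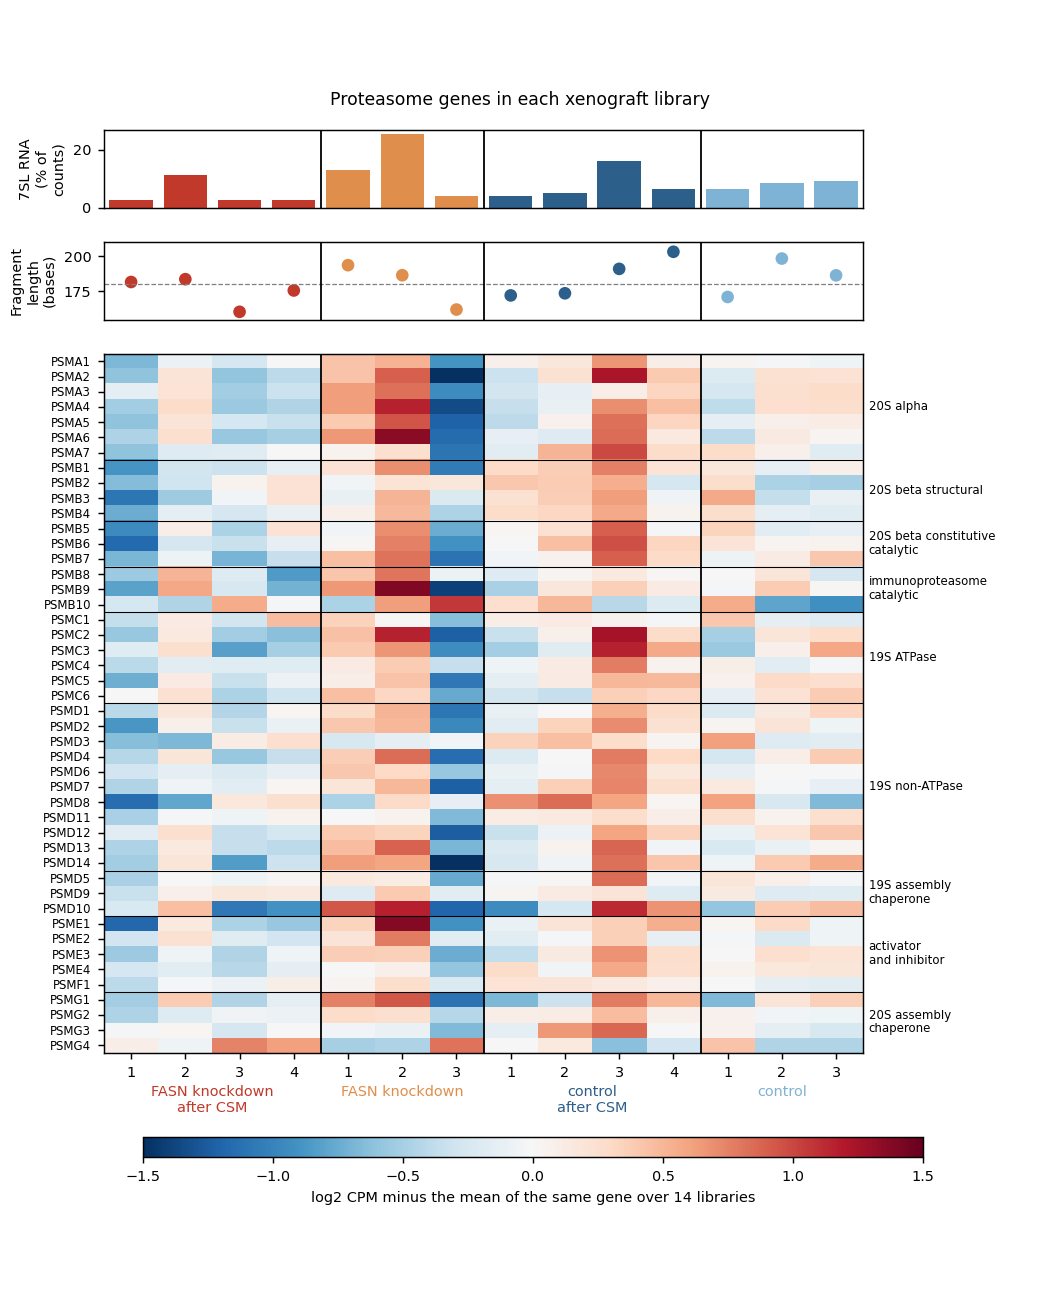
Log2 CPM of each of 46 proteasome genes minus its own mean over 14 libraries (colour), with genes in rows by role and libraries in columns by group, below the share of counts on 7SL RNA (bars, percent) and the mean fragment length (points, bases, dashed line at 180). FASN knockdown replicate 3 is the lowest library in 30 of 46 rows and the highest in those of PSMB10 and PSMG4, and control after CSM replicate 3 is the highest in 26.

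After CSM most proteasome genes had lower CPM but higher TPM in the knockdown than in the control, and no member passed the test. On both scales the median of the members lay below that of all genes. Of 46 members, 0 were called at an adjusted p below 0.05, where 1.17% of all genes tested were called, and the smallest adjusted p was 0.155 (edgeR's quasi-likelihood test). DESeq2 also called 0. On the CPM scale 45 of the 46 (97.8%) had a log2 fold change below 0, against 49.6% of all genes, with a median of -0.49 for the members and 0.01 for all genes. Over the tested genes with a protein-coding transcript, as all members have, the median was -0.16. With only such genes in the fit, 41 members were below 0, and the median was -0.34 for the members and -0.02 for all genes fitted. On the TPM scale 39 of the 46 were above 0, with a median of 0.21 for the members, while the median of all genes also shifted, to 0.39, so that the members lay 0.18 below it. At an unadjusted p below 0.05, 8 members (17.4%) were lower and 0 higher, against 9.33% of all genes lower and 9.14% higher. Without overlap between the libraries of the groups 10 members (21.7%) were lower, against 7.34% of all genes, namely PSMA1, PSMB1, PSMB4, PSMB6, PSMB7, PSMC4, PSMD6, PSMD11, PSME4 and PSMG2. Of these PSMD6 is uncertain through an antisense gene. Without replicate 4 of the group labelled knockdown after CSM the median was -0.49, and without control after CSM replicate 3 it was -0.29. CPM are relative to the counts on human transcripts in each library, so that they measure neither the number of tumour cells nor the RNA per cell.

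PSMB6, PSME4, PSMB1 and PSMB4 had the smallest p-values in that comparison. PSMB6, the caspase-like catalytic subunit, had 33.4, 62.6, 59.1 and 68.6 CPM in libraries labelled knockdown after CSM, against 74.5, 102, 146 and 93.2 CPM in the control after CSM. Every knockdown library was below every control library, and the log2 fold change was -0.89 (SE 0.31, adjusted p = 0.155). PSMB1, a structural subunit of the beta ring, had 41.2, 62.6, 60.7 and 69.7 CPM in the knockdown after CSM, against 92.8, 97.9, 128 and 87.8 CPM in the control after CSM, again without overlap (log2 fold change -0.79, SE 0.29, adjusted p = 0.167). PSMB4 had 63.1, 96.2, 88.9 and 98.3 CPM against 128, 132, 157 and 110 CPM in the same groups. Its groups did not overlap either, with a log2 fold change of -0.61 (SE 0.22, adjusted p = 0.171). PSMB7, the trypsin-like subunit, had a log2 fold change of -0.78 (adjusted p = 0.226) without overlap, and PSMB5, the chymotrypsin-like one, -0.54 with overlap (adjusted p = 0.369).

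Members of the other roles had log2 fold changes from -0.83 to 0.55. Among the 7 tested alpha subunits, which gate the barrel, the log2 fold changes lay between -0.80 for PSMA2 and -0.19, and PSMA7 had the smallest p (log2 fold change -0.70, adjusted p = 0.214). The 6 ATPases of the 19S base lay between -0.79 for PSMC2 and -0.04 for PSMC1, and PSMC4 had 80.7 to 95.7 CPM in the knockdown after CSM against 102 to 182 CPM in the control after CSM, without overlap (log2 fold change -0.49, adjusted p = 0.234). Of the 11 other 19S subunits PSMD8, a subunit of the lid, was furthest from 0, with 35.7, 45.8, 87.4 and 93.1 CPM in the knockdown after CSM and 126, 140, 118 and 80.2 CPM in the control after CSM (log2 fold change -0.83, adjusted p = 0.206). Its groups overlap, and replicates 1 and 2 of the knockdown after CSM are the low ones. PSME4 had 82.7, 88.2, 73.9 and 89.1 CPM against 119, 95.3, 146 and 117 CPM in the same groups, without overlap, and a log2 fold change of -0.52 (adjusted p = 0.164). PSME1 had -0.71 and PSME2 -0.13, so that the partners of the PA28 cap had unequal values, with adjusted p-values of 0.311 and 0.758. Of the 19S assembly chaperones PSMD10, also known as gankyrin, had -0.66 (adjusted p = 0.485), and PSMD5 had -0.37 (adjusted p = 0.416). PSMG2 had -0.39 (adjusted p = 0.277), and PSMG4 was the 1 member above 0, at 0.55 (adjusted p = 0.354).

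**Figure D2:**
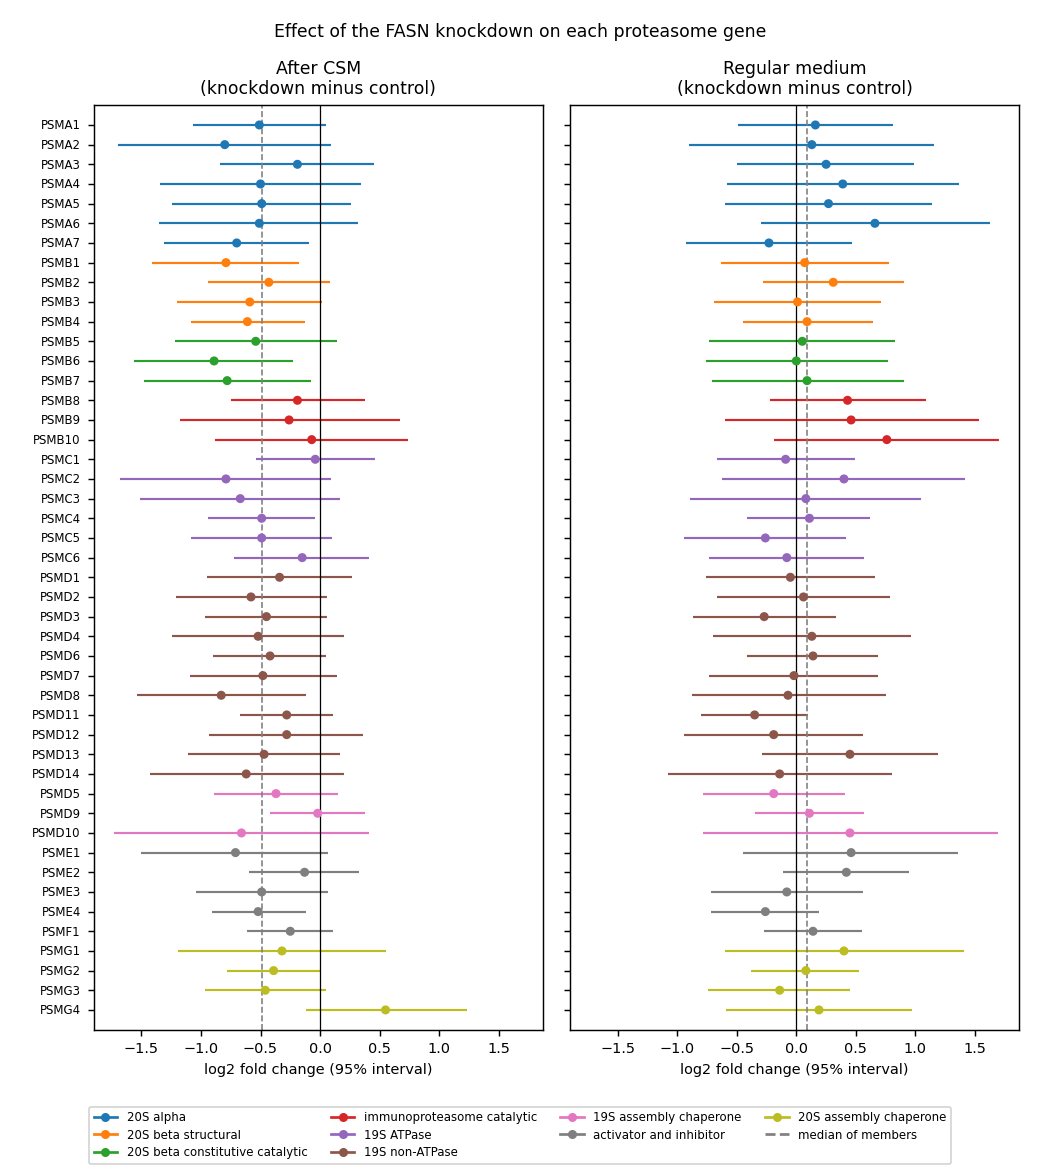
Log2 fold change of the FASN knockdown over the control for each of 46 proteasome genes (points, with 95% intervals from edgeR), after CSM on the left and in regular medium on the right, coloured by role, with the median of the genes dashed. After CSM 45 points lie below 0 around a median of -0.49, and in regular medium 31 lie above 0 around a median of 0.09, on the CPM scale. On the TPM scale, not drawn, 39 lie above 0 after CSM, with a median of 0.21 against 0.39 over all genes.

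**Figure D3:**
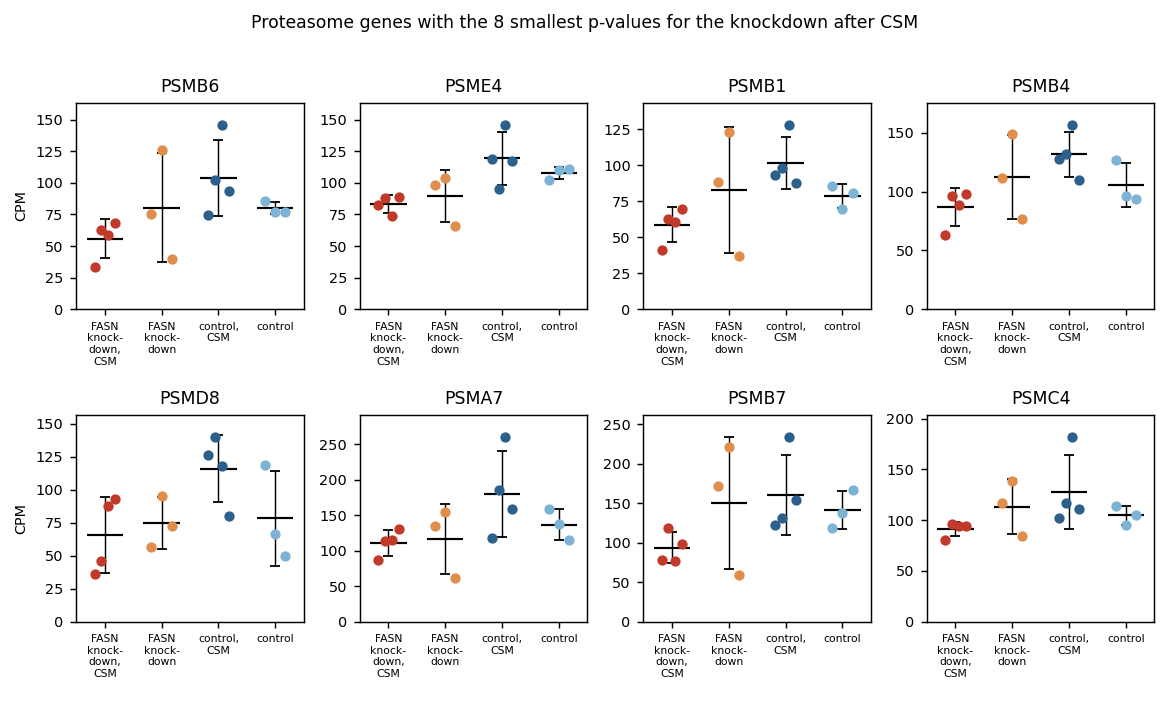
CPM of the 8 proteasome genes with the smallest p-values for the knockdown after CSM, by group, with 1 point per library and the mean and SD of 3 or 4 libraries as lines. PSMB6, PSME4, PSMB1, PSMB4, PSMB7 and PSMC4 do not overlap between the 2 groups after CSM, and PSMD8 and PSMA7 do; in regular medium all 8 overlap.

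Of the measures below, only the shares of transcripts that retain an intron differed without overlap between the knockdown and the control after CSM. The 7SL share was 2.73%, 11.3%, 2.64% and 2.67% in libraries labelled knockdown after CSM (replicates 1 to 4). In the control after CSM it was 4.20%, 4.97%, 16.3% and 6.33%. These overlap through replicate 2 of the knockdown after CSM, whose other replicates are below every control library after CSM. With the log2 share of 7SL as a covariate the median of the members was -0.15. Transcripts annotated as retaining an intron took 6.38% to 8.88% of all counts in the knockdown after CSM and 3.64% to 6.08% in the control after CSM. Within the members that share was 15.9%, 9.64%, 10.2% and 8.11% against 7.55%, 5.35%, 6.97% and 7.58% in the same groups, without overlap, while in regular medium it was 7.40%, 6.56% and 12.2% in the knockdown and 7.60%, 8.57% and 8.31% in the control. Mitochondrial genes took 1.76%, 0.925%, 2.74% and 2.28% of all counts in the knockdown after CSM and 1.35%, 1.17%, 0.328% and 0.722% in the control after CSM, which overlap. The summed level of 10 fibroblast markers was 16.7 to 37.8 CPM in the knockdown after CSM and 33.5 to 50.6 CPM in the control after CSM, with FAP at 0 in the knockdown after CSM. In each of these groups 6 of the 10 had a mean below 1 CPM. The highest mean was that of ACTA2 (17.0 CPM) in the knockdown after CSM and of THY1 (18.5 CPM) in the control after CSM. The transcripts counted were all human, so that the mouse host could enter these sums only through similar sequence, which was not tested. The 16 leukocyte markers summed to 46.0 to 109 CPM and 69.2 to 106 CPM in the same groups, most of it CD68, of which the means were 66.2 and 80.3 CPM. The 7 endothelial markers summed to 1.69 to 2.42 CPM in the knockdown after CSM and 1.44 to 2.69 CPM in the control after CSM, with CLDN5 and KDR at 0 in both. The 7SL share entered a fit as a covariate only, and the part of any of these measures in the members' values was not tested.

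In regular medium no proteasome gene passed the test for the knockdown either. Of 46 members 0 were called, where 0.204% of all genes were, and 0 had an unadjusted p below 0.05, where 9.08% of all genes had. DESeq2 also called 0 members. No member was without overlap between the groups, against 7.04% of all genes lower and 4.80% higher. The median log2 fold change was 0.09 on the CPM scale, with 31 members (67.4%) above 0 against 51.4% of all genes, and -0.30 on the TPM scale, against -0.14 over all genes there. The knockdown libraries themselves lay far apart: PSMA6, an alpha subunit, had 156, 253 and 44.6 CPM in the knockdown and 75.9, 109 and 102 CPM in the control (log2 fold change 0.66, SE 0.45, adjusted p = 0.742). Replicates 1 and 2 were above every control library and replicate 3 below. Without FASN knockdown replicate 3 the median of the members was 0.30, and without replicate 2 it was -0.19. The members with the smallest p or the largest value in their role were PSMB10 (log2 fold change 0.76, adjusted p = 0.667), PSME2 (0.42, adjusted p = 0.678), PSME1 (0.46, adjusted p = 0.850), PSMD11 (-0.35, adjusted p = 0.692), PSMD13 (0.45, adjusted p = 0.788), PSMB2 (0.31, adjusted p = 0.838), PSMG1 (0.40, adjusted p = 0.896), PSMC2 (0.40, adjusted p = 0.900), PSMD10 (0.45, adjusted p = 0.912) and PSMB7 (0.09, adjusted p = 0.984). The standard errors of the members in this comparison were 0.19 to 0.58 on the log2 scale.

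Pre-exposure to CSM likewise moved no member past the test. In control cells 0 of 46 members were called by edgeR and by DESeq2, and edgeR called 0% of all genes. At an unadjusted p below 0.05 there were 0 members and 1.4% of all genes. There 39 members (84.8%) had a log2 fold change above 0, against 51.5% of all genes, with a median of 0.20 that was 0.02 without control after CSM replicate 3. PSMA1, PSMB1, PSMF1 and PSMG2 were higher without overlap, 4 of 46 (8.70%) against 1.91% of all genes. In FASN knockdown cells, too, 0 members were called by either tool and edgeR called 0% of all genes. FASN itself had a log2 fold change of 1.31 there (SE 0.31, adjusted p = 0.568), without overlap. These 2 groups thus differ in FASN level as well as in medium, and the part of each in the members' values was not tested. On the CPM scale 42 members (91.3%) had values below 0, against 51.6% of all genes, around a median of -0.38, while on the TPM scale all 46 were above 0, around a median of 0.66, where all genes had 0.59. PSME1 had the 1 unadjusted p below 0.05 (log2 fold change -0.99, SE 0.39, adjusted p = 0.713), where 2.41% of all genes were lower at that p. It had 40.3, 101, 65.3 and 61.1 CPM in libraries labelled knockdown after CSM, against 115, 237 and 48.6 CPM in the knockdown from regular medium. The interaction, which subtracts the knockdown effect in regular medium from the one after CSM, had 0 called members by both tools, 0% of all genes called by edgeR and 0 members at an unadjusted p below 0.05, where 5.22% of all genes had one. On the CPM scale 43 members (93.5%) were below 0, against 51.7% of all genes, with a median of -0.60, and on the TPM scale all 46 were above 0, with a median of 0.49, which was 0.08 below that of all genes (0.57). PSME1 had the smallest p for it (log2 difference -1.17, SE 0.56, adjusted p = 0.942). FASN had a log2 difference of 1.38 (SE 0.42, adjusted p = 0.942). These comparisons share libraries with the knockdown comparisons.

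PSMB8, PSMB9 and PSMB10 passed the test in no comparison. Their log2 fold changes on the CPM scale were above those of PSMB5, PSMB6 and PSMB7 in both knockdown comparisons, a difference that was not tested. After CSM PSMB8 had 22.2, 46.1, 28.4 and 18 CPM in libraries labelled knockdown after CSM, against 28.3, 33.5, 36.0 and 32.8 CPM in the control after CSM (log2 fold change -0.19, SE 0.27, adjusted p = 0.725). PSMB9 had 12.1, 31.6, 17.8 and 12.9 CPM against 15, 23.8, 27.0 and 22.9 CPM in the same groups (-0.26, SE 0.43, adjusted p = 0.770). PSMB10 had 8.99, 7.90, 15.8 and 10.6 CPM against 12.8, 15.2, 8.11 and 9.34 CPM (-0.07, SE 0.38, adjusted p = 0.935). All 3 overlap between the groups, and their 95% intervals reach from -0.75 to 0.38, from -1.18 to 0.67 and from -0.88 to 0.74. In regular medium PSMB8 had 43.3, 56.8 and 30.4 CPM in the knockdown and 32.4, 36.8 and 27.3 CPM in the control (0.43, SE 0.31, adjusted p = 0.758). PSMB9 had 33.0, 55.3 and 7.98 CPM against 20.9, 27.4 and 21.3 CPM (0.46, SE 0.50, adjusted p = 0.881), its replicate 3 being the lowest of all libraries. PSMB10 had 7.78, 16.6 and 22.5 CPM against 15.8, 6.25 and 5.68 CPM (0.76, SE 0.44, adjusted p = 0.667). PSMB5, PSMB6 and PSMB7 had 0.05, 0.00 and 0.09 there. With CSM in knockdown cells PSMB8 had -0.60, PSMB9 -0.78 and PSMB10 -0.53 (adjusted p = 0.752, 0.804 and 0.851), and in control cells 0.02, -0.06 and 0.30 (all adjusted p = 1).

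A ratio within a library does not depend on its scaling, and so each immunoproteasome subunit was set over the constitutive subunit it replaces, as the log2 ratio of TPM. For PSMB8 over PSMB5 this was -0.78, -0.73, -0.90 and -2.23 in libraries labelled knockdown after CSM, -0.65, -1.03 and -0.67 in the FASN knockdown, -1.47, -1.35, -1.92 and -1.12 in the control after CSM, and -1.52, -0.86 and -1.24 in the control. Replicates 1 to 3 after CSM lie above all 4 control libraries after CSM, and replicate 4, the library whose FASN level goes against its label, lies below all of them. The mean difference after CSM was 0.31, and 0.66 without that replicate. In regular medium the means were -0.79 ± 0.21 in the knockdown and -1.21 ± 0.33 in the control (SD, n = 3 each), and the groups overlap through control replicate 2. For PSMB9 over PSMB6 the ratio was -1.76, -1.29, -2.07 and -2.78 in the knockdown after CSM and -2.43, -2.41, -2.62 and -2.37 in the control after CSM. There too replicates 1 to 3 are above all control libraries and replicate 4 is below them, with a mean difference of 0.48 over all 4 and 0.75 without replicate 4. In regular medium it was -1.46, -1.30 and -2.87 in the knockdown and -2.41, -1.73 and -2.04 in the control, and the mean difference of 0.19 was 0.68 without FASN knockdown replicate 3 and -0.10 without replicate 2. For PSMB10 over PSMB7 the groups overlap widely, between -3.88 and -2.26 in the knockdown after CSM and between -4.73 and -2.98 in the control after CSM, and between -4.35 and -1.40 in the knockdown and between -4.77 and -2.79 in the control. By mean fragment length, PSMB10 over PSMB7 was -3.22 to -1.40 in the libraries below 180 bases and -4.77 to -3.22 in the others. PSMB9 over PSMB6 was -2.87 to -2.07 and -2.62 to -1.29 in the same order. Neither the part of fragment length nor that of the FASN level in the ratios was tested. The summed TPM of the 3 immunoproteasome genes, a sum added after the single ratios had been seen, was 24.7%, 29.6%, 28.9% and 15.2% of that of the 3 constitutive genes in the knockdown after CSM and 18.8%, 20.5%, 12.7% and 18% in the control after CSM. It was 24%, 26.8% and 35.1% in the knockdown and 20.9%, 22.6% and 16.3% in the control from regular medium, where the groups do not overlap. As sums over chosen members these ratios were not tested.

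**Figure D4:**
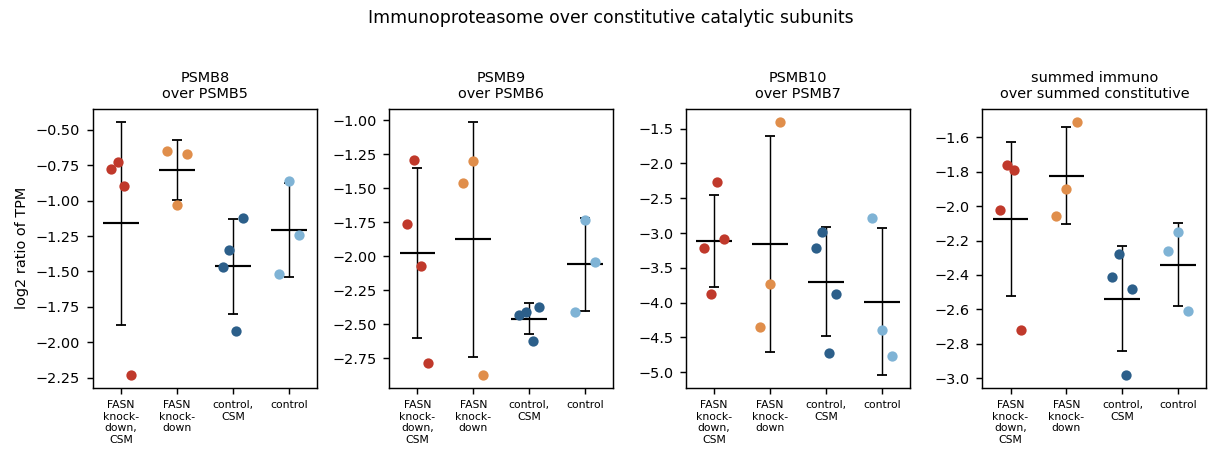
Log2 ratio of TPM of each immunoproteasome subunit over the constitutive subunit it replaces, and of the 2 sums, by group, with 1 point per library and the mean and SD of 3 or 4 libraries as lines. For PSMB8 over PSMB5 after CSM 3 of 4 knockdown libraries lie between -0.90 and -0.73, above all control libraries after CSM, and replicate 4 lies at -2.23.

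The genes that interferon drives beside the immunoproteasome, and the partners of the proteasome, gave no call either. Of 30 interferon and peptide presentation genes, all tested, 0 were called in either direction in any of the 5 comparisons. In regular medium 25 of them had log2 fold changes above 0 on the CPM scale (median 0.29), against 51.4% of all genes, and both lists were fitted on that scale alone. TAP1, the peptide transporter whose gene starts beside that of PSMB9, had 107, 141 and 89.9 CPM in the knockdown and 76.8, 81.3 and 44.1 CPM in the control. Its groups do not overlap (log2 fold change 0.74, adjusted p = 0.448). In that comparison 3 of the 30 were higher without overlap, against 4.80% of all genes. NLRC5, the transactivator of MHC class I genes and of PSMB9, had 52.1, 36.1 and 77.3 CPM against 31.8, 38.2 and 29.6 CPM (0.73, adjusted p = 0.464). After CSM 17 of the 30 were below 0 (median -0.14), against 49.6% of all genes, and NLRC5 had 55.3, 57.3, 64.2 and 41.9 CPM in the knockdown after CSM and 35.7, 41.6, 19.9 and 34.5 CPM in the control after CSM, without overlap (0.73, adjusted p = 0.154). JAK1, the kinase of the interferon receptors, had -0.46 (adjusted p = 0.201). With CSM in knockdown cells 27 of the 30 were below 0, against 51.6% of all genes, with HLA-E at -0.87 (adjusted p = 0.671) and B2M, the light chain of MHC class I, at -1.14 (adjusted p = 0.680). There 5 of the 30 were lower at an unadjusted p below 0.05 in edgeR's test, against 2.41% of all genes. With CSM in control cells STAT2 had -0.53 and HLA-F -0.95 (both adjusted p = 1.00). For the interaction TAPBPL had -0.47 and HLA-C -0.90 (both adjusted p = 0.945).

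Of 30 partners and regulators of the proteasome, all tested, 0 were called in either direction in any comparison. After CSM 29 of them had log2 fold changes below 0 on the CPM scale (median -0.38), against 49.6% of all genes, and 8 were lower at an unadjusted p below 0.05, against 9.33% of all genes. TXNL1, a thioredoxin-like protein of the 19S particle, had 19.8, 34.9, 26.4 and 29.1 CPM in libraries labelled knockdown after CSM, against 49.5, 63.1, 77.9 and 69.5 CPM in the control after CSM. The groups are far apart, with a log2 fold change of -1.24 (SE 0.30, adjusted p = 0.0592). AKIRIN2, which brings proteasomes into the nucleus, had 24.6, 23.9, 27.2 and 23.3 CPM against 44.9, 33.5, 42.6 and 36.3 CPM in the same groups (-0.67, SE 0.17, adjusted p = 0.0728). In regular medium NFE2L2, which encodes NRF2, had 59.3, 59.2 and 44.7 CPM in the knockdown and 74.1, 88.3 and 97.5 CPM in the control, without overlap (-0.67, adjusted p = 0.233). With CSM NFE2L2 had -0.40 (adjusted p = 1.00) and TXNL1 0.48 (adjusted p = 1.00) in control cells, and POMP, the chaperone that matures the core, -0.64 (adjusted p = 0.735) and AKIRIN2 -0.40 (adjusted p = 0.747) in knockdown cells. For the interaction TXNL1 had -1.0 and UFD1 -0.56 (adjusted p = 0.942 and 0.945).

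A split between the libraries that the groups do not explain ran through several members. The mean fragment length, read from the difference between each transcript's length and its effective length, was 160.5 to 175.6 bases in 6 libraries and 181.6 to 203.0 bases in the other 8, and each group held libraries of both kinds. The limit of 180 bases was set after the data had been seen. PSMD10 had 21.0 to 40.0 CPM in the short-fragment libraries and 41.0 to 108 CPM in the long-fragment ones, and PSMC6, an ATPase, 25.4 to 39.4 CPM and 43.1 to 58.5 CPM, both without overlap. In the other direction PSMB10 had 10.6 to 22.5 CPM in the short-fragment libraries and 5.68 to 16.6 CPM in the long-fragment ones, and PSMG4 25.6 to 45.3 CPM and 16.6 to 27.5 CPM. Averaged over the groups, 37 of 46 members were lower in the short-fragment libraries and 9 higher, with a median difference of -0.36 on the log2 scale. Of all genes 44.8% were lower, with a median difference of 0.08, and 2.34% were lower without overlap, against 2 of the 46 members (4.35%). PSMD10 was furthest below at -1.46, and PSMB10 (0.92), PSMG4 (0.84) and PSMD8 (0.66) furthest above. Across the 40 members for which a transcript sequence was at hand, this difference had a Spearman rho of 0.48 with the GC content of the main coding transcript, 41.5% for PSMD10 and 60.1% for PSMB10, and across all 46 a rho of 0.01 with its length.

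For a few members the share of counts on coding transcripts split between the same libraries. Of the counts of PSMC3, an ATPase, 91.6% to 97.2% fell on coding transcripts in the 6 short-fragment libraries and 51.9% to 69.2% in the 8 long-fragment ones. For PSMB2 it was 69.9% to 79.3% and 87.2% to 98.7%, and for PSMG1 43.6% to 60.0% and 63.1% to 84.9%. PSMB5 and PSMB7 had 97.5% to 99.6% and 97.9% to 99.0% in the short-fragment libraries and 98.2% to 99.9% and 92.6% to 99.9% in the long-fragment ones. With the class of fragment length as a term in the fit, a setting added after the data had been seen, 4.38% of all genes were called for the knockdown after CSM, with 2.46% of all genes lower, and 1 of 46 members, PSMD8 (log2 fold change -0.91, SE 0.24, adjusted p = 0.0495). With the mean fragment length as a covariate 0 members were called, and their median for the knockdown after CSM was -0.27. Within the classes, the median difference of the members after CSM was -0.26 among the 2 against 2 short-fragment libraries and -0.70 among the 2 against 2 long-fragment ones. In regular medium it was -0.76 for the 1 against 1 short-fragment library and 0.36 for the 2 against 2 long-fragment ones, so that the directions differ within that comparison.

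**Figure D5:**
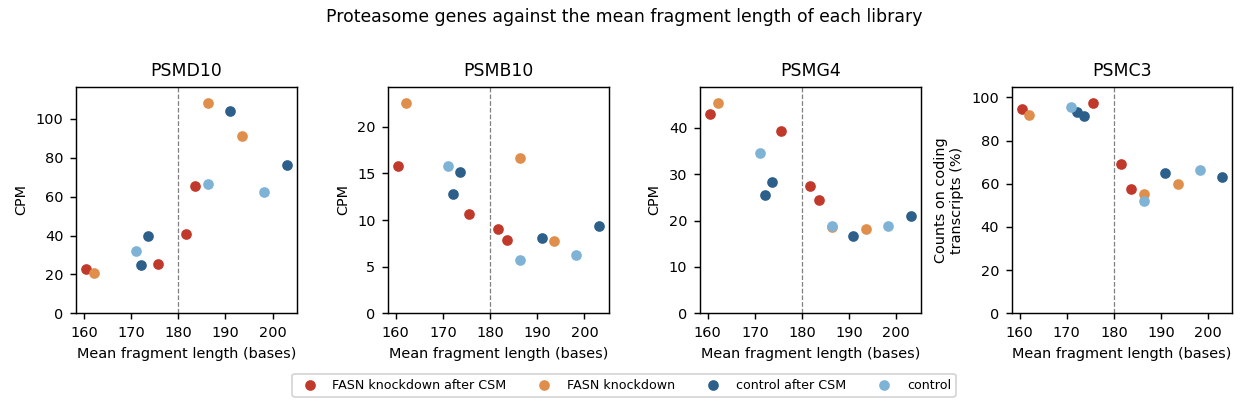
CPM of PSMD10, PSMB10 and PSMG4 and the percentage of PSMC3 counts on coding transcripts in each of 14 libraries, against the mean fragment length in bases, coloured by group, with a dashed line at 180 bases. PSMC3 has 91.6% or more left of the line and 69.2% or less right of it in every group, and PSMD10 has at most 40.0 CPM left of it.

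The estimated shares of the alternative starts of PSMB8 differed between libraries. The short coding transcript of 1124 bases, whose promoter window holds the interferon-stimulated core, took 77.1%, 79.4%, 61.5% and 76.8% of the gene's counts in libraries labelled knockdown after CSM and 47.8%, 63.6%, 60.7% and 71.1% in the control after CSM. In regular medium it took 79.1%, 76.3% and 27.7% in the knockdown and 67.8%, 67.7% and 83.6% in the control. The long coding transcript of 1327 bases was the larger one only in FASN knockdown replicate 3, with 549 counts against 289. A coding transcript of PSMB9 of 792 bases, which starts upstream of the main one, took 0% of the PSMB9 counts in FASN knockdown replicate 3 and in replicate 4 of the group labelled knockdown after CSM, and 15.3% to 57.0% in the other 12. These shares are Salmon's estimates from overlapping transcripts. The strand used in counting is not given in the sources used here, and antisense genes were counted beside 4 members: PSMB8-AS1 had 2.99% to 9.32% of the counts of PSMB8, and PSMA3-AS1 39.1% to 259% of those of PSMA3. PSMD6-AS2 had 2.72% to 50.3% of the counts of PSMD6, and PSMG3-AS1 10.1% to 24.8% of those of PSMG3, so that the values of PSMA3, PSMD6 and PSMG3 are uncertain. The 44 pseudogenes named for members together had 0.466% to 1.04% of the members' counts.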

How the data were processed

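RNA was taken from frozen xenograft tissue, per the labels' protocols. The submitters' processing notes name FastQC, cutadapt, Salmon and the build GRCh38. Tool versions, options and the release of the gene models were not given in the sources used here. Each table the authors deposited holds, per the file headers, unnormalised expected counts, TPM, length and effective length for 252048 transcripts, all human.

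The deposited expected counts were summed per gene and rounded. Genes were tested with edgeR 4.0.16 (R 4.3.3; quasi-likelihood test, TMM, filterByExpr at its defaults, count 10 and total 15), with 14 libraries in 1 fit and 10 residual degrees of freedom, and p-values were adjusted by Benjamini-Hochberg over 22560 genes. A gene was called at an adjusted p below 0.05. CPM are on TMM-scaled totals. The deposited TPM were summed per gene for levels between genes and for ratios. The biological coefficient of variation was 0.444. On simulated counts for the knockdown after CSM over 22560 genes, edgeR called 0 of 50 genes changed by 0.5 on the log2 scale, 6 of 50 changed by 1 and 32 of 50 changed by 2. For the knockdown in regular medium it called 0, 1 and 20 of 50. The labels do not say that libraries come from separate animals, so the p-values reflect only how far these libraries scatter, in part perhaps technically.

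The members and gene lists were chosen with earlier results of these data known. The text names FASN, the 6 catalytic subunits of both kinds, members below the filter, called members, and per role and knockdown comparison the member with the smallest p and the one furthest from 0; of the other 2 lists it names the 2 genes with the smallest p per comparison, of which 1 is not reported here. Members named for their fragment length, transcripts or correlation, and those named for their TPM rank, were chosen after their values were seen. The transcript sequences behind GC content are those of GENCODE release 29 with the same transcript ID and a length within 25%; promoter windows and gene positions are from RefSeq (GRCh38.p14). The alternatives are named with their values in the closing section.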

Additional observations from a re-analysis of the deposited data

Results flagged for a closer look

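In the groups of 4 libraries, a library was marked where its gap to the nearest of the others made up more than 0.829 of the group's range. Of 102 groups looked at, 9 had such a library. Chance alone marks about 5 in 100 where the groups are independent. The members vary together from library to library, so that no excess can be read from this count. Replicate 2 of the group labelled knockdown after CSM, the 1 of that group with over 10% 7SL RNA, stood above the other 3 for PSMA4 (58.6 CPM, others 32.9 to 35.4), PSMA6 (117 CPM, others 67.2 to 72.0), PSMC2 (87.6 CPM, others 51.6 to 55.3) and PSMD13 (77.5 CPM, others 51.0 to 55.3). Replicate 1 of that group was low for PSMC4 (80.7 CPM, others 94.5 to 95.7). Control after CSM replicate 3, with 16.3% 7SL RNA, stood above the others for PSMA1 (90.0 CPM, others 60.3 to 64.2), PSMD5 (66.9 CPM, others 36.4 to 37.9) and PSMG2 (60.2 CPM, others 45.8 to 47.0). Replicate 4 of the group labelled knockdown after CSM was low for the log2 ratio of PSMB8 over PSMB5 (-2.23, others -0.90 to -0.73), and it is the library whose FASN level goes against its label. A link between the 2 was not tested.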

How the results depend on the processing

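No member was called in any of the 5 comparisons under DESeq2, the other normalisations, the filter of 2 CPM in 3 libraries, the coding-only sums, the 7SL covariate, limma on TPM, the replicate block or any left-out library. Without a filter on low counts 3 members were called for the knockdown after CSM, PSMB6 (log2 fold change -0.89, adjusted p = 0.0207), PSMD8 (-0.81, adjusted p = 0.0461) and PSMA2 (-0.81, adjusted p = 0.0481), all lower, and with the class of fragment length as a term 1 was. Over all genes that comparison had 264 calls, 1178 without a filter, 1421 with DESeq2, 59 with the replicate block, 42 with limma on TPM + 0.1 and 86 to 175 without 1 library. The knockdown in regular medium had 46, 389 without a filter, 331 with DESeq2, 17 with the replicate block and 11 to 35 without 1 library. DESeq2 called 6 genes for CSM in control cells, 52 for CSM in knockdown cells and 7 for the interaction, where edgeR called 0.

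The median of the members depended on scaling. With the 7SL covariate it was -0.16 for the knockdown in regular medium, -0.15 for the knockdown after CSM, 0.27 for CSM in control cells, 0.24 for CSM in knockdown cells and 0.01 for the interaction. On log2(TPM + 1) with limma it was -0.30 for the knockdown in regular medium, 0.21 for the knockdown after CSM, 0.66 for CSM in knockdown cells and 0.49 for the interaction. All genes had -0.14, 0.39, 0.59 and 0.57 there. On log2(TPM + 0.1) the members had -0.33, 0.22, 0.68 and 0.53 in the same order, and all genes -0.30, 0.63, 0.88 and 0.91. Without the 2 libraries over 15% 7SL the median of the members was -0.21, -0.28, 0.03, -0.12 and -0.13 for the same 5 comparisons as with the covariate. With only genes that have a protein-coding transcript it was 0.12, -0.34, 0.17, -0.29 and -0.49 in that order. Leaving out 1 library at a time gave medians of -0.19 to 0.30 for the knockdown in regular medium, -0.57 to -0.29 after CSM, 0.02 to 0.29 for CSM in control cells, -0.53 to -0.14 for CSM in knockdown cells and -0.76 to -0.33 for the interaction. The cause was not tested.

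FASN in regular medium missed the threshold with only the groups of the comparison (log2 fold change -1.92, adjusted p = 0.0611), the replicate block (-1.94, adjusted p = 0.0847), limma on TPM + 1 (-1.88, adjusted p = 0.762) and on TPM + 0.1 (-1.96, adjusted p = 0.549), without the libraries over 15% 7SL (-1.84, adjusted p = 0.122) and without each library in turn (-2.07 to -1.73, adjusted p 0.0549 to 0.137). After CSM FASN was at 0.19 on both TPM scales.

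After CSM PSMB10 was at 0.08 with upper-quartile factors, 0.00 with the 2 CPM filter, 0.06 with coding genes, 0.05 with coding transcripts, and 0.51 and 0.56 on TPM + 1 and TPM + 0.1, and between -0.29 and 0.12 without 1 library. PSMB8 was at 0.02 with the 7SL covariate and at 0.42 and 0.44 on the TPM scales, and PSMB9 at 0.21, 0.27 and 0.29, and at 0.01 with the fragment length covariate. In regular medium PSMB9 was at -0.16 with the 7SL covariate, -0.25 and -0.26 on the TPM scales, -0.17 without the libraries over 15% 7SL, and between -0.16 and 0.90 without 1 library.

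With the replicate block the medians of the members were 0.08, -0.49, 0.20, -0.37 and -0.61 for the knockdown in regular medium, the knockdown after CSM, CSM in control cells, CSM in knockdown cells and the interaction. Libraries with the same number had correlations of their deviations between -0.38 and 0.33, with 5 of 19 over 0.1, so the numbers were not taken as pairs.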
